A study of Mus musculus with 8 samples.

Results

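The *Smad* genes encode the transducers of TGF-β, activin and BMP signaling, and all 8 of them in the mouse (*Smad1* to *Smad7* and *Smad9*) were examined here for occupancy by PBRM1 and BRG1, among 21951 protein-coding genes of the GENCODE annotation of mm10. They were chosen by name and function. PBRM1 (BAF180) is a bromodomain protein of the SWI/SNF complex, a chromatin remodeler, and BRG1, encoded by *Smarca4*, is the ATPase that drives the complex. Both were mapped by ChIC-Seq, in which an antibody bound to protein A/G–micrococcal nuclease directs DNA cutting in fixed cells, with 3 replicates per antibody. Primary stromal cells came from the uteri of WT mice, 8 to 12 weeks old, on D4, released by digestion of 5 to 10 uterine horns and kept for a few hours in culture. The labels give D4 of pregnancy in one place and pseudopregnancy in another, and name no strain. The labels give 50000 cells per library, whereas the methods of the study give a larger number. The study calls the replicates biological, and the labels do not say whether each came from its own preparation of pooled horns. The 2 IgG libraries were not analysed here.

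SMAD proteins fall into 3 classes. Ligand-bound receptors phosphorylate the receptor-activated SMADs, of which SMAD1, SMAD5 and SMAD9 serve the BMP branch and SMAD2 and SMAD3 the TGF-β and activin branch. They join SMAD4, the common partner, and enter the nucleus to bind DNA, while the inhibitory SMAD6 and SMAD7 block the receptors and are themselves induced by the pathway. In the uterine stroma, BMP2 acting through this pathway is required for decidualization.

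A promoter peak was a peak that touched a window of 2000 bp on either side of any annotated transcription start site (TSS) of the gene, and the span of a gene was its body plus these windows. A site was a stretch covered by a pooled peak of either antibody, that is, a peak called on the joined fragments of 3 replicates. The spans of the 8 genes held 72 sites. The sequences below reach 100 bp to either side of the summit of selected sites on mm10, all on the plus strand. *Smad3* and *Smad6* are both read from the minus strand. The promoter sites of *Smad3* and *Smad6* are shown because they were found in all 6 replicates and represent a receptor-activated and an inhibitory gene. The 4 intronic sites are shown because, with 1 site of *Smad7*, they were the sites outside promoters with a peak in all 3 replicates of an antibody. The intronic sites were chosen after their values were seen. Capitals mark exact matches, on either strand, to the strings searched: GTCTAGAC and CAGAC, the palindromic and short forms of the SMAD binding element, GGCGCC, a GC-rich SMAD site, TGANTCA, the AP-1 site, and GGGCGG, the GC box.
*Smad3* promoter, chr9:63758042-63758242: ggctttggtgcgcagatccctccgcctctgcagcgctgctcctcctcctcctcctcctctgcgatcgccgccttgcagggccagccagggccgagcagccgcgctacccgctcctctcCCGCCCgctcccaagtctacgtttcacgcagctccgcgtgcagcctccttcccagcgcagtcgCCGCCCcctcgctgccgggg
*Smad6* promoter, chr9:64022998-64023198: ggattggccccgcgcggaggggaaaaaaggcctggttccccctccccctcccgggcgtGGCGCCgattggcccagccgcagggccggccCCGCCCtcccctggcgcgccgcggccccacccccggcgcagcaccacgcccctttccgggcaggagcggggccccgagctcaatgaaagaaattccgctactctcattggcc
*Smad3* intronic site at 41598 bp, chr9:63716296-63716496: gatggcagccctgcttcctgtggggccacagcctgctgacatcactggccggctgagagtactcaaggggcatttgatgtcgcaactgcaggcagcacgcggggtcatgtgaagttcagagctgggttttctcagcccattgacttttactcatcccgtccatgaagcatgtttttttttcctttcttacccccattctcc
*Smad3* intronic site at 51433 bp, chr9:63706461-63706661: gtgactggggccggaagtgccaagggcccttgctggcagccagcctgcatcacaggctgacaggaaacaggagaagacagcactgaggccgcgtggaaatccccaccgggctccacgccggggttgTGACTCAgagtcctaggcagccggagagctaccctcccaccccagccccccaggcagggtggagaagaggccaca
*Smad3* intronic site at 70389 bp, chr9:63687505-63687705: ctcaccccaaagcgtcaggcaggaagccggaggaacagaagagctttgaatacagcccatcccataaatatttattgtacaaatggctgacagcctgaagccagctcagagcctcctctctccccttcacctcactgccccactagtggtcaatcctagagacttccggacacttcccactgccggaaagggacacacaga
*Smad6* intronic site at 61434 bp, chr9:63960525-63960725: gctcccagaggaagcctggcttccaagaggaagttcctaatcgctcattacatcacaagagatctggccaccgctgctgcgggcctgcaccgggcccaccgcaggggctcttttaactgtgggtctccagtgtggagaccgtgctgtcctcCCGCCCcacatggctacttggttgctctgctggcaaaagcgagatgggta
Distances are those of the summit from the TSS at the 5′ end of the gene. The *Smad3* promoter held 2 GC boxes and no SMAD string, and the *Smad6* promoter held 1 GC-rich SMAD site and 1 GC box. Of the intronic sites, that at 51433 bp in *Smad3* held an AP-1 string, that of *Smad6* held a GC box, and the others at 41598 bp and 70389 bp held none of the strings.

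All 8 genes had a promoter peak in each of the 3 PBRM1 and each of the 3 BRG1 replicates. Among all protein-coding genes, 52.2% had a promoter peak in all 3 PBRM1 replicates, 61.4% in all 3 BRG1 replicates and 51.9% in all 6. Each gene had exactly 1 site found in all 6 replicates, and all 8 of these sites were at promoters. The promoter windows of *Smad5* also hold a TSS of *Gm27271*, *Gm27301* and *Gm27834*, and those of *Smad7* a TSS of *Gm20544*. No other annotated gene has a TSS in the windows of the remaining members. MACS called each list without a control library, so a peak is an excess over the local background of its own library. Bulk peaks also do not tell the share of cells that carry them.

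The receptor-activated *Smad2* had the strongest promoter of the set. Its fold enrichment over the local background was 12.2, 9.81 and 6.70 in PBRM1 replicates 1, 2 and 3, and 11.5, 12.0 and 10.8 in the BRG1 replicates. The peak was also placed within its own list, as the percent of peaks with a lower −log10 q-value. This percentile orders genes within a list, but it rises with the number of weak peaks in the list and is not on one scale for both antibodies. On this scale *Smad2* stood at 96.4, 95 and 87.4 for PBRM1 and at 97.6, 97.3 and 96.6 for BRG1. Of the 11388 genes with a promoter peak in all 6 replicates, 87.2% had a lower mean percentile than *Smad2* for PBRM1 and 91.3% for BRG1.

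*Smad3*, the other receptor-activated gene of the TGF-β branch, had percentiles of 78.6, 73.0 and 74.3 for PBRM1 and 87.7, 88.8 and 86.4 for BRG1. Its fold enrichment averaged 5.43 ± 1.08 with the PBRM1 antibody and 6.96 ± 0.529 with the BRG1 antibody (SD, n = 3 each). *Smad4*, the common SMAD, was alike in percentile, with 72.1, 80.7 and 70.0 for PBRM1 and 88.5, 84.4 and 86.0 for BRG1.

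Among the BMP-branch genes, *Smad1* had the most even BRG1 signal and an uneven PBRM1 signal. The BRG1 percentiles were 91.2, 90.8 and 90.4, and the PBRM1 percentiles were 90.3, 54.8 and 66.6. In PBRM1 replicate 2 the strongest *Smad1* promoter peak was not at the 5′ TSS but at a TSS inside the gene, with its summit 43370 bp downstream. At the 5′ TSS itself that replicate stood at 48.7. *Smad5* reached 83.7, 86.3 and 42.5 for PBRM1 and 81.0, 89.0 and 78.5 for BRG1. *Smad9* was the lowest of the set, at 51.1, 63.7 and 19.2 for PBRM1 and at 53.7, 72.1 and 68.7 for BRG1. Only 9.14% and 8.97% of the 11388 genes had a lower mean PBRM1 or BRG1 percentile than *Smad9*.

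The inhibitory genes had low promoter enrichment. *Smad6* stood at 57.2, 65.4 and 72.9 for PBRM1 and at 85.7, 83.2 and 72.1 for BRG1. *Smad7* stood at 69.8, 83.6 and 35.9 for PBRM1 and at 79.1, 72.0 and 72.9 for BRG1. Their mean fold enrichments were 4.44 ± 0.141 and 4.71 ± 1.26 for PBRM1, and 5.27 ± 0.623 and 4.59 ± 0.0743 for BRG1 (SD, n = 3 each), the lowest 2 of the 8 means for either antibody.

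For BRG1 the mean percentiles fell in the order *Smad2*, *Smad1*, *Smad3*, *Smad4*, *Smad5*, *Smad6*, *Smad7* and *Smad9*. The replicates of *Smad2* and *Smad1*, and those of *Smad1* and *Smad3*, did not overlap, and from *Smad3* on each gene overlapped the next. For PBRM1 the order was *Smad2*, *Smad3*, *Smad4*, *Smad5*, *Smad1*, *Smad6*, *Smad7* and *Smad9*. By the range of its replicates, *Smad2* alone stood clear of the next gene. Compared within each PBRM1 replicate, *Smad7* was also above *Smad9* (69.8 against 51.1, 83.6 against 63.7 and 35.9 against 19.2).

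**Figure D1:**
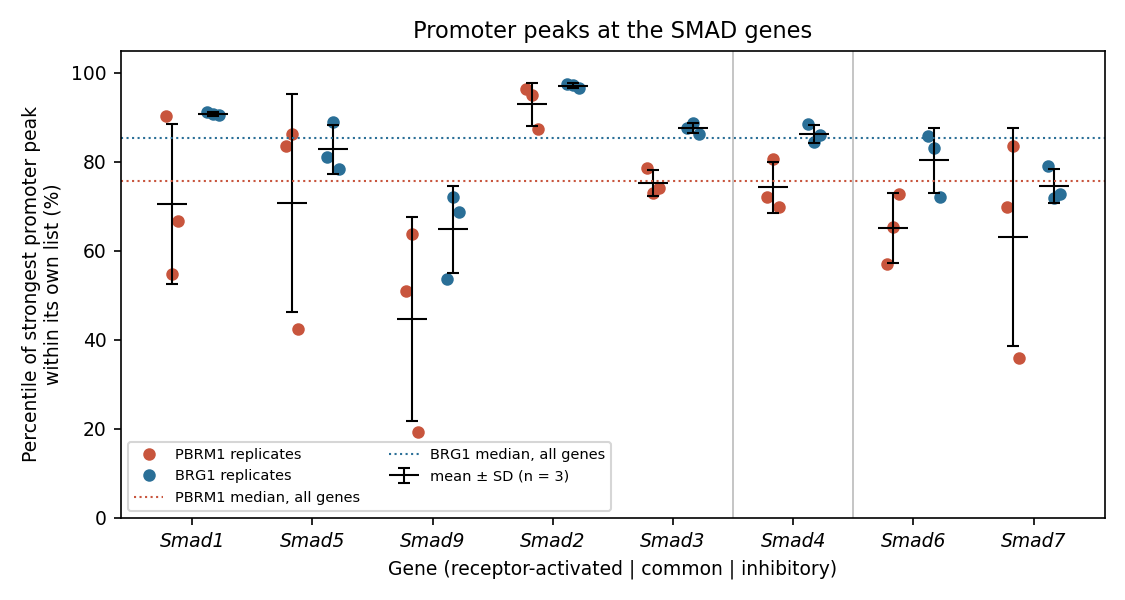
Percentile of the strongest promoter peak within its own list, by −log10 q-value (y axis), for each SMAD gene (x axis). Points are replicates, bars are means ± SD (n = 3), and dotted lines are the medians of 11388 genes (75.7 for PBRM1 and 85.4 for BRG1); *Smad2* is above both medians in every replicate, and PBRM1 replicate 3 is far below the other PBRM1 replicates at *Smad5*, *Smad7* and *Smad9*.

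In the whole lists the mean percentile was lower for PBRM1 than for BRG1 at all 8 genes, and the differences, PBRM1 minus BRG1, ran from −4.22 points at *Smad2* to −20.2 points at *Smad1* and *Smad9*. The replicates of the antibodies did not overlap at *Smad1*, *Smad2*, *Smad3* and *Smad4* (exact permutation test, two-sided, p = 0.1 each, which is the lowest p reachable with 3 libraries per antibody), which is 4 of 8 genes beside 40.1% of the 11388 genes with BRG1 above in this way. PBRM1 was above BRG1 in all replicates at none of the 8 genes and at 2.74% of the 11388. The replicates overlapped at *Smad5* and *Smad7* (exact permutation test, p = 0.7 each) and at *Smad6* and *Smad9* (exact permutation test, p = 0.2 each). The BRG1 lists were longer (36656 to 40610 against 21912 to 26363 peaks), and the medians over the 11388 genes were 75.7 for PBRM1 and 85.4 for BRG1. Within the 20000 strongest peaks of each replicate list, these medians were 71.3 and 72.2. At this equal length the replicates of the antibodies overlapped at all 8 genes (exact permutation test, p = 0.3 to 1), and the differences ran from −18.2 at *Smad1* (p = 0.4 by the exact permutation test) to 6.11 at *Smad7*. BRG1 was then above PBRM1 in all replicates at 12.8% of the 11388 genes, PBRM1 above BRG1 at 13.2%, and neither at any of the 8.

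PBRM1 replicate 3, which had the most fragments of its antibody (16505239) and the fewest peaks (21912), was the lowest of the 3 in percentile at *Smad2*, *Smad4*, *Smad5*, *Smad7* and *Smad9*. Without it the PBRM1 mean in the whole lists was higher than the BRG1 mean by 2.11 points at *Smad5* and by 2.07 points at *Smad7*. The strongest promoter peaks of *Smad5*, *Smad7* and *Smad9* in this replicate had −log10 q-values of 4.97, 4.38 and 3.17, so that with a minimum of 5 only 5 of the 8 genes kept a promoter peak in all 3 PBRM1 replicates, and all 8 kept one in all 3 BRG1 replicates.

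Summits lay close to the 5′ TSS for most genes. The pooled BRG1 summit was 5 bp upstream of it at *Smad1*, 51 bp at *Smad5*, 148 bp at *Smad3*, 160 bp at *Smad4* and 245 bp at *Smad2*, and at *Smad9* it was 55 bp downstream. The summits of the inhibitory genes were farther upstream, at 1039 bp for *Smad6* and 831 bp for *Smad7*. For *Smad6* the summit moved between replicates, from 1039 bp upstream in BRG1 replicates 1 and 2 and PBRM1 replicate 2, to 302 and 321 bp upstream in the third replicates of BRG1 and PBRM1, and to 178 bp downstream in PBRM1 replicate 1. The pooled summits of both antibodies coincided at *Smad6* and were 3 bp apart at *Smad5*, 13 bp at *Smad1*, 14 bp at *Smad3* and 153 bp at *Smad7*.

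The promoter peaks also differed in shape. The strongest pooled BRG1 promoter peak was 1540 bp long at *Smad3*, 1500 bp at *Smad6* and 1431 bp at *Smad7*, longer than the same peak in 96.7%, 96.0% and 94.6% of the 15830 genes with a pooled BRG1 promoter peak, whose median was 794 bp. The fold enrichments of these long peaks were 7.29, 5.50 and 4.56, below the median of 8.73. *Smad1* and *Smad4* had short peaks of 586 and 566 bp with fold enrichments of 10.7 and 10.9. *Smad2* combined a length of 830 bp with a fold enrichment of 12.4. In the pooled PBRM1 list *Smad3* had the longest peak, 1444 bp, whereas *Smad7* was 693 bp and *Smad9* was 1172 bp. In the separate BRG1 replicates, where the median lengths were 639, 590 and 575 bp, the peaks were 852, 808 and 810 bp at *Smad3*, 1483, 1007 and 994 bp at *Smad6*, and 757, 753 and 759 bp at *Smad7*, all above the median of their list. The peaks were 496, 398 and 462 bp at *Smad1*, 462, 528 and 441 bp at *Smad4*, and 482, 533 and 465 bp at *Smad2*, all below it. In these replicates the *Smad3* peaks were longer than those of 76.1%, 77.2% and 79.2% of genes with a promoter peak. The shares were 65.6%, 71.2% and 74.0% at *Smad7*, and 99.1%, 91.0% and 91.7% at *Smad6*. The pooled *Smad3* site covered 2 separate peaks in each BRG1 replicate, and that of *Smad7* 2 in BRG1 replicates 1 and 2. In the PBRM1 replicates *Smad6* ranged from 213 to 990 bp and *Smad7* from 196 to 660 bp, so the order of the pooled list did not hold there.

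**Figure D2:**
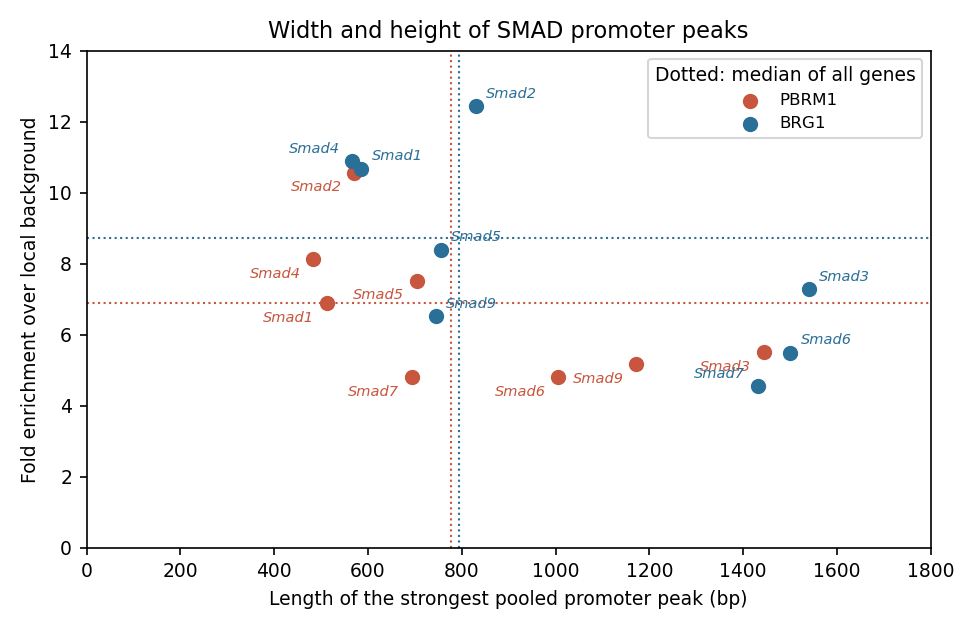
Length in bp (x axis) and fold enrichment over the local background (y axis) of the strongest pooled promoter peak of each SMAD gene in the PBRM1 and BRG1 lists. Dotted lines are the medians of all genes with such a peak (776 bp and 6.90 for PBRM1, 794 bp and 8.73 for BRG1); the BRG1 peaks of *Smad3*, *Smad6* and *Smad7* are long and low, and those of *Smad1* and *Smad4* short and high.

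By class, the median promoter percentile of the 5 receptor-activated genes was 74.4 ± 8.60 for PBRM1 and 87.7 ± 1.34 for BRG1 (mean ± SD of the replicate medians, n = 3). That of the 2 inhibitory genes was 64.1 ± 10.1 and 77.5 ± 4.96, and *Smad4* was at 74.3 ± 5.68 and 86.3 ± 2.07. The receptor-activated medians were above the inhibitory medians in all 3 BRG1 replicates, and in PBRM1 replicates 1 and 3 but not 2 (73.0 against 74.5). In percentile the classes did not separate gene by gene, since the receptor-activated *Smad9* had the lowest mean and *Smad2* the highest for both antibodies. In mean fold enrichment they did. The lowest receptor-activated mean was 5.43 for PBRM1 and 6.78 for BRG1, and the highest inhibitory mean was 4.71 and 5.27. The receptor-activated minus inhibitory difference in PBRM1 percentile was 10.3 points, 5.37 without PBRM1 replicate 1 and 16.2 without replicate 2. With 5, 1 and 2 genes, the class values are a description and were not tested.

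Peaks along the genes gave a different order. The spans held 44 pooled PBRM1 peaks, 21 at promoter windows and 23 outside them, and 67 pooled BRG1 peaks, 24 and 43. A pooled PBRM1 peak outside the promoter windows was present at 6 of the 8 genes, all but *Smad2* and *Smad4*, beside 29% of all protein-coding genes, and a pooled BRG1 peak at 7, all but *Smad2*, beside 36.4%. These shares take no account of gene length. Per 10 kb of span, the median over the 8 genes was 0.804 pooled PBRM1 peaks and 1.26 pooled BRG1 peaks, and the median over all protein-coding genes was 0.421 and 0.606.

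*Smad3*, the longest of the set with a span of 113228 bp, carried 10 pooled PBRM1 and 19 pooled BRG1 peaks. In the replicates it had 3, 6 and 3 PBRM1 peaks and 11, 10 and 8 BRG1 peaks, and it was the only one of the 8 genes at which the replicate counts of the antibodies did not overlap. PBRM1 minus BRG1, the counts differed by −5.67 peaks, and by −4.67 peaks without the promoter windows (exact permutation test, two-sided, p = 0.1 for both, again the lowest reachable). BRG1 was above PBRM1 in this way at 7.25% of all genes, and PBRM1 above BRG1 at 0.105% of all genes and none of the 8. All genes here include the 24.4% with no pooled BRG1 peak in the span. In the 20000 strongest peaks of each replicate the *Smad3* difference was 0 (exact permutation test, p = 1), and per 10000 peaks of a list it was −0.871 (exact permutation test, p = 0.2).

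*Smad6* carried 12 pooled PBRM1 and 11 pooled BRG1 peaks, with 4, 5 and 2 PBRM1 peaks and 6, 6 and 4 BRG1 peaks in the replicates. *Smad1* carried 8 and 13 pooled peaks, with 4, 4 and 3 against 4, 5 and 3 in the replicates. The short *Smad7* had 6 and 8 pooled peaks, with 2, 3 and 3 against 6, 3 and 2. At these 3 genes the replicates of the antibodies overlapped. *Smad5*, *Smad9* and *Smad4* had 1 to 3 peaks per replicate, and *Smad2*, the gene with the strongest promoter, had 1 peak, that of its promoter, in every one of the 6 replicates.

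**Figure D3:**
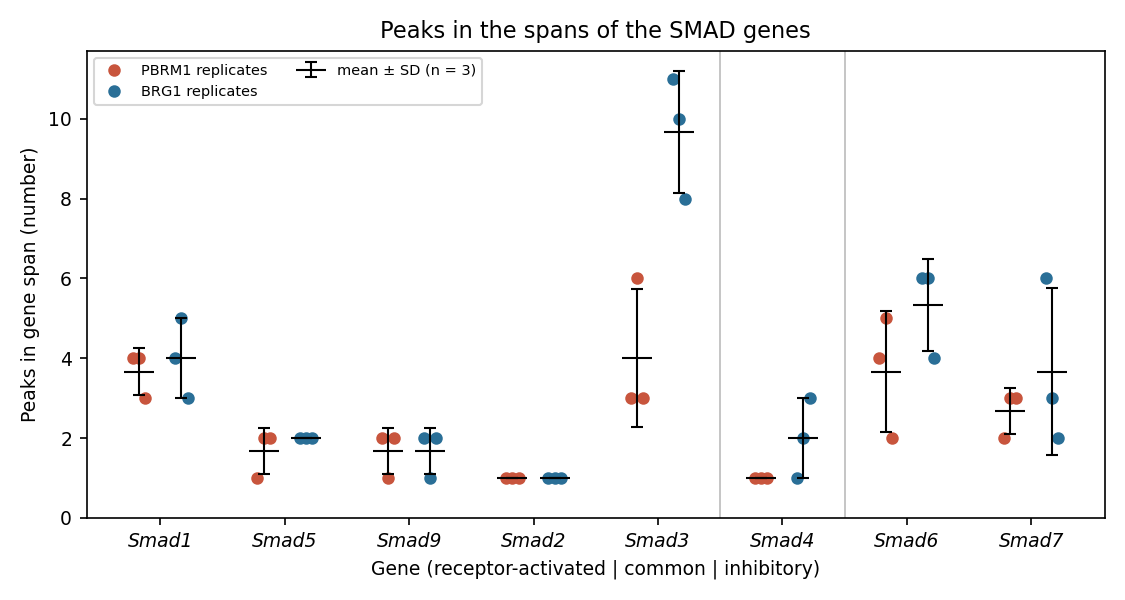
Number of peaks in the span of each SMAD gene (y axis) in the separate replicate lists. Points are replicates and bars are means ± SD (n = 3); the BRG1 counts of *Smad3* (8 to 11) are all above its PBRM1 counts (3 to 6), and *Smad2* has 1 peak in each replicate.

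Relative to length, the inhibitory genes had the most pooled peaks for PBRM1. *Smad7* had 1.97 pooled PBRM1 and 2.63 pooled BRG1 peaks per 10 kb, more than 91.7% and 95.3% of all protein-coding genes. *Smad6* had 1.69 and 1.55 per 10 kb, more than 88.9% and 81.7%. *Smad1*, at 1.27 and 2.06, had more BRG1 peaks per 10 kb than *Smad6*. *Smad2* had 0.140 and 0.280 per 10 kb, more than 32.0% and 33.7% of genes, and *Smad4* had 0.150 and 0.899. In the replicate lists the class medians were 0.389 ± 0.112 receptor-activated against 0.697 ± 0.129 inhibitory peaks per 10 kb for PBRM1, and 0.481 ± 0.00474 against 0.979 ± 0.403 for BRG1 (SD, n = 3 each). The inhibitory median, which is the mean of *Smad6* and *Smad7*, was higher in each of the 6 replicates. *Smad7* averaged 0.877 ± 0.190 PBRM1 and 1.21 ± 0.685 BRG1 peaks per 10 kb over the replicates, and *Smad6* 0.517 ± 0.215 and 0.751 ± 0.163. Above *Smad6* stood *Smad1* for PBRM1 (0.581 ± 0.0915) and *Smad3* for BRG1 (0.854 ± 0.135), so *Smad6* alone was not above all receptor-activated genes. The receptor-activated minus inhibitory difference for BRG1 was −0.498 peaks per 10 kb and −0.284 without BRG1 replicate 1.

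Of the 72 sites, 34 were shared by both pooled lists, 7 were in the PBRM1 list only and 31 in the BRG1 list only, and 54 had their summit in an intron. Overlap of 1 bp or more with the pooled BRG1 list was seen for 37 of the 44 PBRM1 peaks (84.1%, with a 95% Wilson interval from 70.6% to 92.1%), beside 78.6% of the whole PBRM1 list. Of the 67 pooled BRG1 peaks, 36 (53.7%, 41.9% to 65.1%) overlapped a pooled PBRM1 peak, beside 52.4% of all. Both general shares lay inside these intervals, which cover counting error only.

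The sites found in all 6 replicates were at promoter windows. Of the 26 sites at promoter windows, 8 were in all 6 replicates, 9 were in more BRG1 than PBRM1 replicates and 6 were in no replicate. Over all protein-coding genes the shares were 41%, 30.3% and 20%. Of the 46 sites outside promoter windows, none was in all 6 replicates, 15 were in more BRG1 than PBRM1 replicates and 24 were in no replicate, beside 2.63%, 36.4% and 48.5% over all protein-coding genes. Sites of the pooled lists that no replicate list held rest on the joined fragments alone.

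The sites outside promoters with a peak in all 3 replicates of an antibody numbered 5, all intronic. At 41598 bp in *Smad3*, the site was in PBRM1 replicates 1, 2 and 3 with fold enrichments of 3.40, 4.12 and 3.38, and in BRG1 replicates 1 and 2 with 5.22 and 4.99. The *Smad7* site 11254 bp from the 5′ TSS, on chr18:75378425-75379024, had fold enrichments of 5.41, 3.62 and 3.25 for PBRM1 and of 5.61 and 4.02 in BRG1 replicates 1 and 2. These 2 sites were in all PBRM1 replicates and missing from BRG1 replicate 3.

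The other 3 were in all BRG1 replicates. At 51433 bp in *Smad3*, the site with the AP-1 string shown above, the BRG1 fold enrichments were 6.65, 4.63 and 6.71, and PBRM1 replicate 2 alone had a peak, at 3.94. At 70389 bp in *Smad3* the BRG1 values were 4.60, 3.99 and 3.75, and neither a PBRM1 replicate nor the pooled PBRM1 list had a peak. At 61434 bp in *Smad6* the BRG1 values were 3.70, 3.41 and 4.86, with a peak of 3.42 in PBRM1 replicate 1. All values at these 5 intronic sites were below the mean promoter fold enrichment of *Smad2* for the same antibody. Most were also below the strongest promoter peak of their own gene in the same replicate. The exceptions at *Smad7* were PBRM1 replicates 1 (5.41 against 5.37) and 3 (3.254 against 3.251) and BRG1 replicate 1 (5.61 against 4.67). For BRG1, the *Smad3* site at 51433 bp was higher in replicate 1 (6.65 against 6.45), and the *Smad6* site in replicate 3 (4.86 against 4.55). *Smad1* carried a further replicated site at an internal TSS (chr8:79350118-79350548, summit 174 bp upstream of that TSS), with peaks in all 3 PBRM1 replicates (4.39, 5.27 and 4.11) and in BRG1 replicate 2 (4.00).

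**Figure D4:**
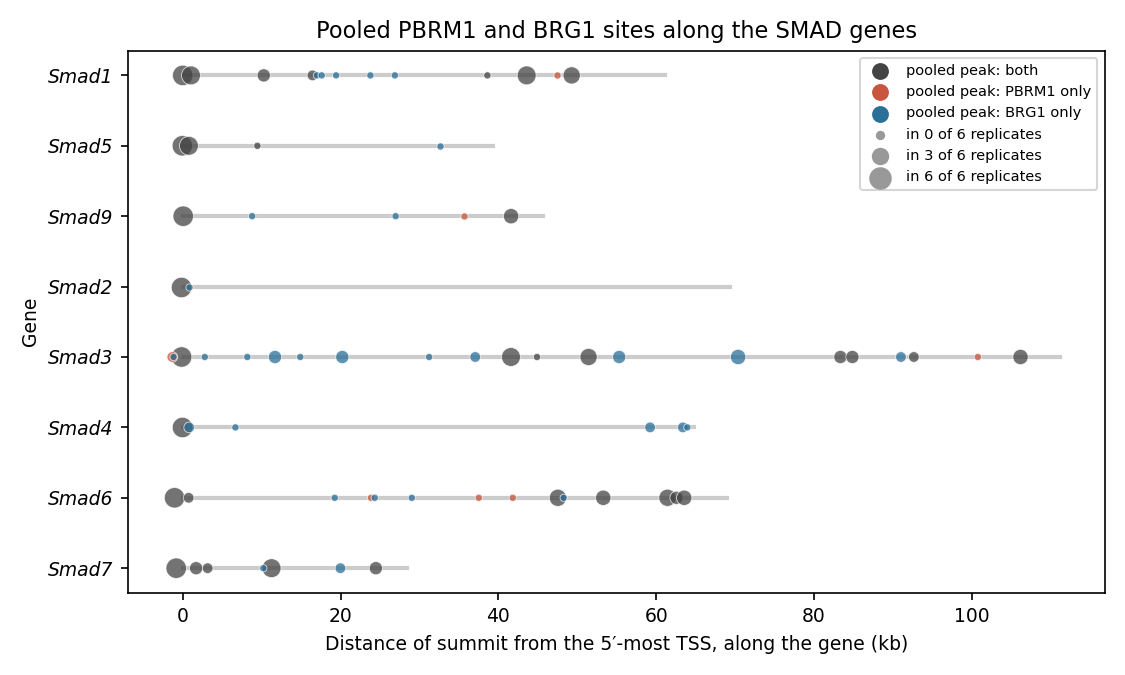
Sites of the pooled lists along each SMAD gene (y axis), placed by the distance of the summit from the 5′-most TSS in kb (x axis). Grey lines are gene bodies, color gives the pooled list or lists that hold the site, and point size the number of replicates with a peak; each gene has 1 site found in all 6 replicates, at its 5′ end, and *Smad3* has the largest number of sites in the pooled BRG1 list alone (11 of 31).

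The strings were counted at all 72 sites, with 1 summit each, and at all pooled summits of each antibody. Among all pooled summits, promoter means a peak that touches a window of any annotated gene, coding or not. The 26 promoter sites are at windows of the SMAD genes, so the shares are not strictly alike. Outside promoters, CAGAC was in 21 of 46 windows of 100 bp on either side of a summit (45.7%), beside 44.6% of BRG1 and 45.5% of PBRM1 summits outside promoters. At promoter windows it was in 10 of 26 (38.5%), beside 38.8% and 39.2%. The palindrome GTCTAGAC was in none of the 72 windows, and in 0.145% to 0.175% of all pooled summits by antibody and place. AP-1 strings were in 4 of 46 windows outside promoters (8.70%, beside 10.3% and 9.56%) and in 2 of 26 at promoters (7.69%, beside 5.06% and 4.00%). GGCGCC was in 7 of 26 windows at promoters (26.9%, beside 14.8% for either antibody) and in 1 of 46 outside (2.17%, beside 3.79% and 3.36%). The GC box was in 12 of 26 at promoters (46.2%, beside 39.6% and 38.9%) and in 4 of 46 outside (8.70%, beside 10.1% and 9.91%). Matches of different strings may share bases. These counts are a description. A match is not a binding site, and the lack of a match says only that these letters are not in the window.

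Genes around the SMADs, their regulators, partners and targets, also had promoter peaks. Of 30 such genes in 4 groups, 29 had a promoter peak in all 6 replicates, beside the 51.9% of all protein-coding genes given above. All 6 adaptors and phosphatases had one, among them *Hgs*, which helps present SMADs to receptors, with a mean BRG1 fold enrichment of 14.7 ± 0.967, and *Zfyve16*, an endosomal SMAD anchor, with 10.6 ± 1.04 (SD, n = 3 each). The *Hgs* window also holds the TSS of *Arl16*. All 8 ubiquitin ligases and deubiquitinases had one, led by *Rnf111*, which degrades the SMAD corepressors (11.3 ± 0.765), and *Smurf2*, a ligase for SMADs and receptors (9.36 ± 0.360). The 8 coactivators and corepressors included the acetyltransferase gene *Crebbp* (13.3 ± 1.57) and *Foxh1*, a DNA-binding partner of SMAD2 and SMAD3 (11.1 ± 0.810), whose window it shares with *Ppp1r16a*. Of the 8 targets of the pathway, 7 had a peak in all 6 replicates, led by *Bambi*, a decoy receptor (10.8 ± 0.455), and *Ccn2*, a matricellular factor (6.95 ± 0.503).

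The label of the cells was compared with promoter peaks at marker genes. Of 10 stromal genes, 6 had a promoter peak in all 3 PBRM1 replicates and 9 in all 3 BRG1 replicates. Of 6 epithelial genes the counts were 0 and 3, and each of the 6 had a pooled promoter peak of both antibodies. Of 4 immune genes the counts were 0 and 0, with 3 of them lacking even a pooled peak, and of 3 endothelial genes 1 and 2. The shares over all protein-coding genes were 52.2% for PBRM1 and 61.4% for BRG1. Peaks do not measure RNA or the share of cells of a type, so the part of other cells in the SMAD peaks was not tested.

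The genes whose peak counts were most like those of *Smad3* over the 8 lists, by the sum of absolute differences in the number of peaks per span, were *Dysf* (a sum of 7), *Galnt17* (8) and *Nckap5* (8). Their spans were 205895, 438416 and 919180 bp, all longer than that of *Smad3*. At each of them, too, every BRG1 replicate count was above every PBRM1 count. The counts were 9, 8 and 9 against 4, 5 and 3 at *Dysf*, 11, 11 and 8 against 4, 7 and 4 at *Galnt17*, and 8, 8 and 9 against 3, 5 and 3 at *Nckap5*. These genes were chosen by the same counts.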

How the data were processed

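ChIC-Seq peak lists of PBRM1 and BRG1 in primary uterine stromal cells were analysed, 3 replicate lists and 1 pooled list per antibody, with groups taken from the sample titles. Per the methods and the submitters' processing notes, the authors trimmed reads, aligned them to mm10 (GRCm38) with Bowtie2 and called peaks with MACS, and the headers of the deposited lists name version 2.2.7.1, no control, a q-value limit of 0.05 and a local lambda taken over up to 10000 bp. Per the file headers, each deposited list gives the pileup signal, the −log10 q-value and the fold enrichment of each peak. The PBRM1 replicates held 8868777 to 16505239 fragments, the BRG1 replicates 11506964 to 14595089, and the pooled lists 38144108 and 37842839, with more peaks in the pooled lists. Shares carry 95% intervals by Wilson's method, for counting error only.

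Peaks were intersected (minimum 1 bp) with promoter windows (2000 bp on either side of any GENCODE vM21 TSS) and gene spans in Python 3.11.15 with numpy 2.4.6 and pandas 2.3.3. The steps were tested on simulated intervals. Replicates of the antibodies were compared by a two-sided exact permutation test, with a smallest p of 0.1 over 16 tests of single genes, so that no p-value could pass 0.05 and none was adjusted. Sequences came from the GRCm38 genome (strain C57BL/6J) and strings were searched up to 100 bp from a summit. No sequence was printed for genes on chromosome 18 or over exons. The members, gene lists and tests were chosen with earlier results of these data known. Genes named were the 8 members, the 2 genes of each pathway list with the highest mean BRG1 fold enrichment, pathway genes with no pooled promoter peak (there were none), and the 3 genes most like *Smad3*, the member with the most pooled BRG1 peaks. Alternatives were other promoter distances, a −log10 q-value of at least 5, summits in place of peaks, protein-coding transcripts, peaks in all 3 replicates, a larger overlap, spans without promoters, equal or scaled list lengths, ranking by fold enrichment, a replicate block and each replicate left out. Restriction to the 5′-most TSS and percentiles within the 20000 strongest peaks were added after the data were seen. The values of the pathway gene without a promoter peak in all 6 replicates are not reported here.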

Additional observations from a re-analysis of the deposited data

How the results depend on the processing

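With a −log10 q-value of at least 5, the members with a promoter peak in all 3 PBRM1 replicates numbered 5, the pooled peaks in the spans 28 for PBRM1 and 41 for BRG1, and the receptor-activated minus inhibitory difference in PBRM1 peaks per 10 kb was −0.191, against −0.307 at the authors' threshold, and for BRG1 −0.290 against −0.498. The same difference in PBRM1 percentile was 16.3 points against 10.3, and 21 against 29 pathway genes had a promoter peak in all 3 PBRM1 replicates. Without promoter windows the spans held 23 and 43 pooled peaks, and limited to peaks in all 3 replicates they held 11 and 14. The share of PBRM1 peaks overlapping BRG1 was 100% for peaks in all 3 PBRM1 replicates and 68.2% with an overlap of 50% of both peaks. The difference in peaks per span, PBRM1 minus BRG1, turned positive in the 20000 strongest peaks at *Smad1* (0.667), *Smad6* (0.667) and *Smad7* (0.333), and per 10000 peaks of a list at *Smad1* (0.493, exact permutation test, p = 0.1), *Smad5* (0.179), *Smad6* (0.124) and *Smad7* (0.183). With each replicate left out in turn it ran from −1.83 to 0.167 at *Smad7* (positive without BRG1 replicate 1) and from −0.833 to 0.167 at *Smad1* (positive without BRG1 replicate 2), and the promoter percentile difference ran from −19.8 to 2.11 at *Smad5* and from −21.8 to 2.07 at *Smad7* (positive without PBRM1 replicate 3). Within the 20000 strongest peaks, chosen after the data were seen, the percentile difference was 6.11 at *Smad7* and 3.80 at *Smad9*. The cause of these turns was not tested. Of 192 values of single genes under the alternatives, 148 kept their sign, 13 turned, 24 had a main value of 0 and 7 became 0, among them the *Smad3* peaks in span in the 20000 strongest peaks. The count of kept signs is no measure of stability, because the replicate block cannot change a difference. The other promoter distances and summits in place of peaks also gave the main values again. Deviations of PBRM1 and BRG1 replicates from their means correlated at −0.0400 to 0.0293 over 13093 peaks, so they gave no sign of pairing by replicate number. They cannot tell whether samples with the same number came from the same preparation. A replicate block leaves each difference as it is and changes only the test. For the *Smad3* span difference of −5.67 it gave p = 0.25 (exact sign-flip test, the smallest 3 pairs allow). Of the 72 sites, 30 were in no replicate list.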

Other observations

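*Smad3* and *Smad6* are neighbors on mouse chromosome 9, and the interval between them (mm10 chr9:63759995-63953075, 193081 bp) holds 3 annotated genes, *Gm18541*, *Gm2553* and *Gm36033*. It held 11 pooled PBRM1 and 17 pooled BRG1 peaks, or 0.570 and 0.880 per 10 kb. The PBRM1 replicates had 4, 6 and 4 peaks there and the BRG1 replicates 10, 7 and 6. The highest PBRM1 count thus equaled the lowest BRG1 count, and the shared peaks were not counted.

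Of the 17 pooled BRG1 peaks of the interval, 2 were found in all 6 replicates, as was no site outside the promoter windows of the SMAD genes. In the spans of all protein-coding genes, 41% of sites at promoter windows and 2.63% of those outside were in all 6. Whether the 2 peaks lie near a TSS of the 3 annotated genes was not tested. At chr9:63927423-63928084 the mean fold enrichment was 7.75 ± 0.194 for PBRM1 and 10.5 ± 1.17 for BRG1, and at chr9:63941727-63942123 it was 6.41 ± 1.14 and 10.5 ± 1.15 (SD, n = 3 each). These means were above those of the *Smad3* (5.43 and 6.96) and *Smad6* (4.44 and 5.27) promoters for the same antibody. Both peaks were picked with their values in view, and the lists do not tell which gene, if any, they act on.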
